A study of Homo sapiens with 6 samples.

Results

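The aminoacyl-tRNA synthetases and the scaffold proteins that hold some of them together were followed in Kasumi-1 cells after knockdown of FBL. The genes were taken by symbol from a list of 38 names, and each name matched 1 row of the 31966 in the deposited count table. They comprised 19 genes for cytosolic enzymes or enzyme subunits, 16 for mitochondrial enzymes, whose names end in 2, and 3 for scaffold proteins (AIMP1, AIMP2 and EEF1E1). Kasumi-1 is an established human acute myeloid leukaemia line with the RUNX1-RUNX1T1 fusion. In the FBL knockdown group (n = 3) the cells carried an inducible hairpin RNA against FBL, which encodes the ribosomal RNA methyltransferase fibrillarin, and in the control group (n = 3) an inducible hairpin against luciferase. Both groups were given 100 ng/ml doxycycline for 72 h. The labels name 1 cell line, and they give neither a hairpin sequence nor the number of different hairpins used per group. They do not state whether replicates were separate cultures, and p-values therefore reflect the spread between these samples alone, part or all of which may be technical.

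Each aminoacyl-tRNA synthetase joins an amino acid to the tRNAs that carry it to the ribosome. Most amino acids are served by one nuclear gene for the cytosol and another for the mitochondrion, while GARS1 and KARS1 make both forms from 1 gene. In the cytosol several synthetases sit together in the multi-synthetase complex, around the scaffold proteins AIMP1, AIMP2 and EEF1E1. The enzymes fall into class I and class II by the fold of their catalytic domain. Uncharged tRNA is sensed by the kinase GCN2 (EIF2AK4), and in mammalian cells the transcription factor ATF4, made when GCN2 is active, induces many cytosolic synthetase genes.

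The deposited counts totalled 85556322 to 95023102 per FBL knockdown library and 88541034 to 103148412 per control library. The synthetase and scaffold genes held 272 to 24440 counts each in the FBL knockdown libraries and 354 to 31305 in the control libraries, and all 38 passed the filter on low counts. FBL itself had 54.0, 32.4 and 44.9 CPM (counts scaled to a common library total) in the FBL knockdown libraries, against 580, 550 and 544 CPM in the control libraries. The groups did not overlap, each library matched its label, and FBL fell by 3.67 ± 0.16 on the log2 scale (SE; adjusted p = 3.93e-06 by edgeR's quasi-likelihood test, Benjamini-Hochberg over all genes). Of 8 markers of the line all were detected, and 5 did not pass the test between groups. MPO fell, at 5413 CPM in FBL knockdown libraries and 7256 CPM in control libraries (log2 fold change -0.42 ± 0.11, edgeR adjusted p = 0.0134), while ANPEP (0.60 ± 0.08, 0.000314) and CD34 (0.66 ± 0.13, 0.0024) rose. Markers of T cells, erythroid cells, fibroblasts and epithelium had 0 to 10 counts per library, except CD3E, which averaged 0.158 CPM in FBL knockdown libraries and 0.289 CPM in control libraries. In bulk RNA, fewer cells of a type and less RNA per cell cannot be told apart. Libraries differed in the level of GC-rich against GC-poor transcripts. Genes above 58.6% GC minus genes below 41.7% GC stood at 0.24, -0.16 and -0.07 on the log2 scale in FBL knockdown libraries 1 to 3 and at -0.31, 0.36 and -0.07 in control libraries 1 to 3, so the groups overlapped in this measure.

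Over all 38 genes the change was to lower levels. In FBL knockdown against control 26 of the 38 fell, 0 rose and 12 did not pass the threshold of 0.05 on the adjusted p (edgeR quasi-likelihood test, Benjamini-Hochberg over all genes). Among all 18486 tested genes 17.0% were called lower and 15.8% higher. The log2 fold changes ranged from -1.32 for AARS1 to 0.09 for AIMP1, 35 of the 38 were below zero, and their median was -0.46, beside -0.0061 for all tested genes. The 2 groups of libraries did not overlap for 31 of the 38 genes, beside 45.2% of all tested genes. The 38 genes together took 0.170%, 0.160% and 0.173% of all counts in the FBL knockdown libraries, against 0.251%, 0.212% and 0.231% in the control libraries.

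**Figure D1:**
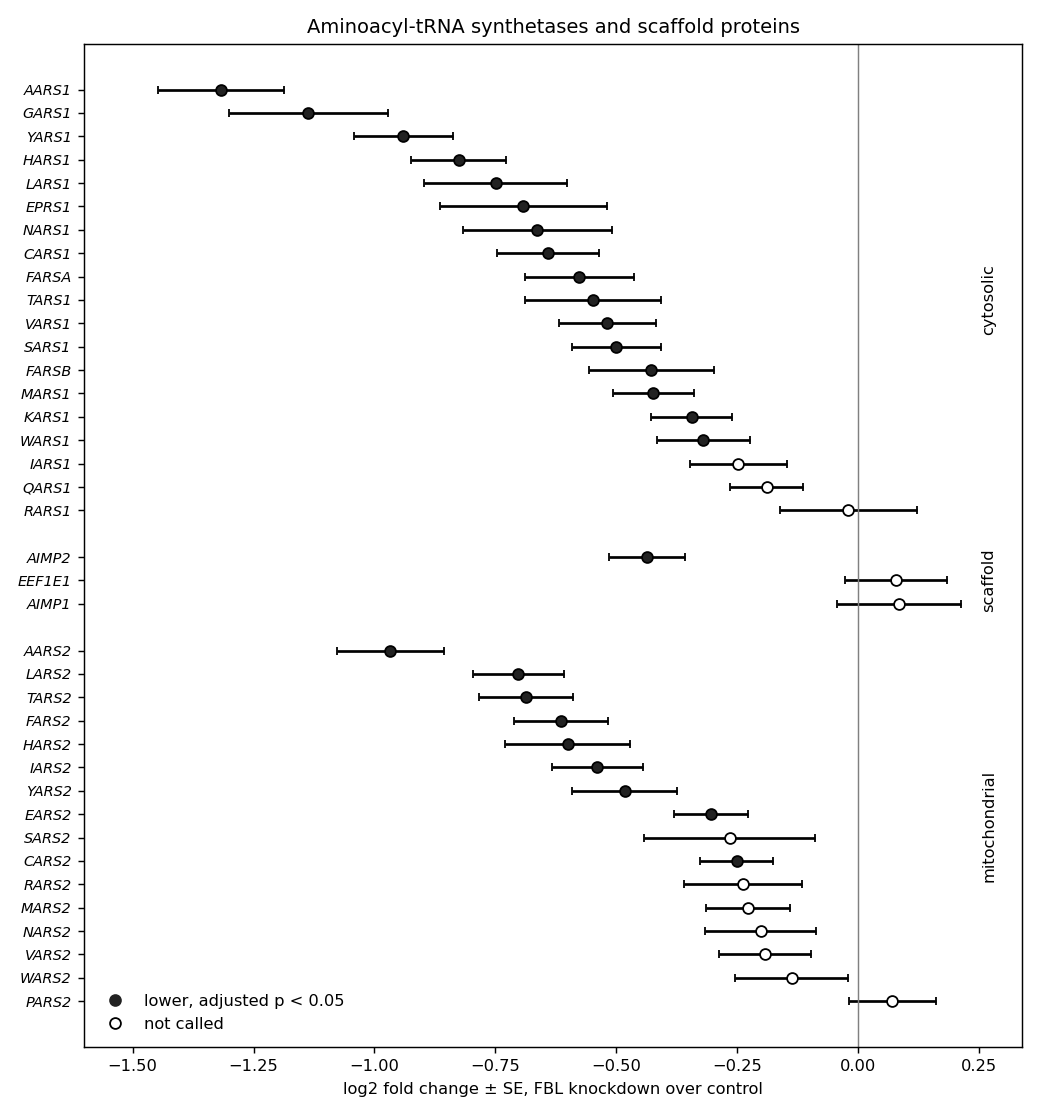
Log2 fold change of each gene, FBL knockdown over control, with its standard error (horizontal axis), grouped as cytosolic enzymes, scaffold proteins and mitochondrial enzymes and ordered by size within each. Filled points mark the 26 genes called lower at an adjusted p under 0.05 and open points the 12 that were not called, and no gene was called higher.

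Of the 19 cytosolic genes 16 fell, 0 rose and 3 did not pass, with a median log2 fold change of -0.55 and a range of -1.32 to -0.02. Groups did not overlap for 18 of the 19, beside 45.2% of all tested genes in either direction. Since strongly expressed genes were called lower more often, the counts were also read by level. At 1 to 10 CPM 3 of 4 cytosolic genes were called lower, beside 14.3% of all genes of that level. At 10 to 100 CPM it was 8 of 9, beside 27.7%, and at 100 CPM or more 5 of 6, beside 27.8%. Groups did not overlap for 3 of 4 at 1 to 10 CPM, beside 2703 of all 6098 genes of that level. At 10 to 100 CPM this held for 9 of 9, beside 3097 of 5485, and at 100 CPM or more for 6 of 6, beside 908 of 1724. Summed over the 19 cytosolic genes, the RPKM (CPM per kilobase of gene length, as deposited) came to 291, 253 and 264 in FBL knockdown libraries, against 388, 377 and 382 in control libraries.

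AARS1, the cytosolic alanyl-tRNA synthetase (GRCh38 chromosome 16, 70252295 to 70289543, minus strand), had the largest change of the 38. It stood at 28.2, 25.6 and 26.5 CPM in FBL knockdown libraries, against 81.8, 55.8 and 62.8 CPM in control libraries. The highest FBL knockdown value was below the lowest control value by a wide margin, and control library 1 was above the other controls. The log2 fold change was -1.32 ± 0.13 (SE), which is 40.1% of the control level (edgeR adjusted p = 6.96e-05). The gene DDX19B, an RNA helicase, starts 120 bases away on the other strand, and its log2 fold change was 0.06 ± 0.11 (edgeR adjusted p = 0.732), at 21.5 CPM in FBL knockdown and 20.7 CPM in control libraries. The promoter of AARS1 is shown because this start region lies beside a neighbour that was not called and holds a match to TGATGNAA, described further on. It covers 250 bases before and 50 after the start in RefSeq (GRCh38.p14, chr16:70289457-70289756, minus strand), with the match, read here as its reverse complement, in capitals.
AARS1: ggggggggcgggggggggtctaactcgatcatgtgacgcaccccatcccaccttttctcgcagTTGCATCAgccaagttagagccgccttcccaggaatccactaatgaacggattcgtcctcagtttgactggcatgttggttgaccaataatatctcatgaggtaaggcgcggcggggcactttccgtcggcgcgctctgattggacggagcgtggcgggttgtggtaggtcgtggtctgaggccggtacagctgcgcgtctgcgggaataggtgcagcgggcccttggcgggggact

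GARS1 (chromosome 7, 30594681 to 30634033, plus strand) encodes glycyl-tRNA synthetase for both compartments. It had 16.2, 16.9 and 19.3 CPM in FBL knockdown libraries, against 49.5, 29.3 and 36.1 CPM in control libraries. The groups did not overlap, and the log2 fold change was -1.14 ± 0.16 (SE; edgeR adjusted p = 0.000525). The long non-coding GARS1-DT, which starts 128 bases away on the other strand, was at 0.25 ± 0.16 (edgeR adjusted p = 0.27). KARS1, lysyl-tRNA synthetase, likewise serves both compartments and also sits in the multi-synthetase complex. It had 90.2, 91.5 and 86.3 CPM in FBL knockdown libraries, against 123, 107 and 111 CPM in control libraries. Again the groups did not overlap, but the distance was smaller, at a log2 fold change of -0.34 ± 0.08 (SE; edgeR adjusted p = 0.00971). The call for KARS1 was lost without FBL knockdown replicate 3, at -0.29 with an adjusted p of 0.0795.

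YARS1, tyrosyl-tRNA synthetase, is an enzyme of class I that also has secreted, cytokine-like fragments. It had 89.9, 81.6 and 85.9 CPM in FBL knockdown libraries, against 189.9, 150.5 and 154 CPM in control libraries. FBL knockdown libraries were close together and all lay below the controls, at a log2 fold change of -0.94 ± 0.10 (SE; edgeR adjusted p = 0.000108). LARS1, leucyl-tRNA synthetase, is a complex member known also as a leucine sensor upstream of mTORC1. It had 7.26, 8.37 and 8.46 CPM in FBL knockdown libraries, against 16.3, 10.5 and 13.7 CPM in control libraries. The groups did not overlap, the controls spread more than the FBL knockdown libraries, and the log2 fold change was -0.75 ± 0.15 (SE; edgeR adjusted p = 0.00321). EPRS1, whose product charges both glutamate and proline tRNAs from 1 polypeptide, had 2.95, 3.40 and 3.93 CPM in FBL knockdown libraries, against 6.74, 4.24 and 5.63 CPM in control libraries. The groups did not overlap, though FBL knockdown replicate 3 came close to control replicate 2, and the log2 fold change was -0.69 ± 0.17 (SE; edgeR adjusted p = 0.0109). Without FBL knockdown replicate 2 the EPRS1 call was lost, at -0.69 with an adjusted p of 0.0538.

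HARS1 and HARS2, the cytosolic and mitochondrial histidyl-tRNA synthetases, lie head to head on chromosome 5. HARS1 (140673904 to 140691862, minus strand) had 20.1, 19.6 and 20.3 CPM in FBL knockdown libraries, against 40.2, 32.8 and 33.3 CPM in control libraries. HARS2 (140691426 to 140699318, plus strand) had 5.22, 4.15 and 4.22 CPM in FBL knockdown libraries, against 7.43, 6.03 and 7.14 CPM in control libraries. Both genes fell without overlap of the groups, HARS1 at a log2 fold change of -0.83 ± 0.10 and HARS2 at -0.60 ± 0.13 (SE; edgeR adjusted p = 0.000172 and 0.00509). Their annotated transcripts overlap at the 5′ ends, and without a stated strand setting the reads of that stretch cannot be assigned to either gene, so these values are uncertain to that extent. The log2 ratio of HARS1 over HARS2 in RPKM was 0.64, 0.93 and 0.96 in FBL knockdown libraries, against 1.13, 1.14 and 0.91 in control libraries. In this ratio the groups overlapped (2-sided exact permutation test p = 0.3, adjusted p = 0.415 over 18 ratios). The shared promoter is printed because it lies around both starts, with the 84 bases between the RefSeq starts in capitals (GRCh38.p14, chr5:140691321-140691504, plus strand), and 61.4% of its bases were G or C.
HARS1 and HARS2: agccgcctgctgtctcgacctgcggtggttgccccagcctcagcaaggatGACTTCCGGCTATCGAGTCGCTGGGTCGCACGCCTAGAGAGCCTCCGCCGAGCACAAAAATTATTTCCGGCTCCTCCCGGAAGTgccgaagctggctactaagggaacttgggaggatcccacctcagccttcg

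WARS1, tryptophanyl-tRNA synthetase, is a gene that interferon gamma induces in many human cells. It had 78.3, 77.6 and 78.7 CPM in FBL knockdown libraries, against 111, 87.1 and 94.7 CPM in control libraries. The FBL knockdown libraries were nearly equal and all below the controls, and the log2 fold change was -0.32 ± 0.10 (SE; edgeR adjusted p = 0.0262). This was a small change near the threshold, and the call was lost without control replicate 1 (-0.22, adjusted p = 0.0811), without control replicate 3 (-0.34, 0.0661) and without FBL knockdown replicates 1 (-0.32, 0.0555), 2 (-0.31, 0.0904) or 3 (-0.30, 0.115), all by edgeR.

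**Figure D2:**
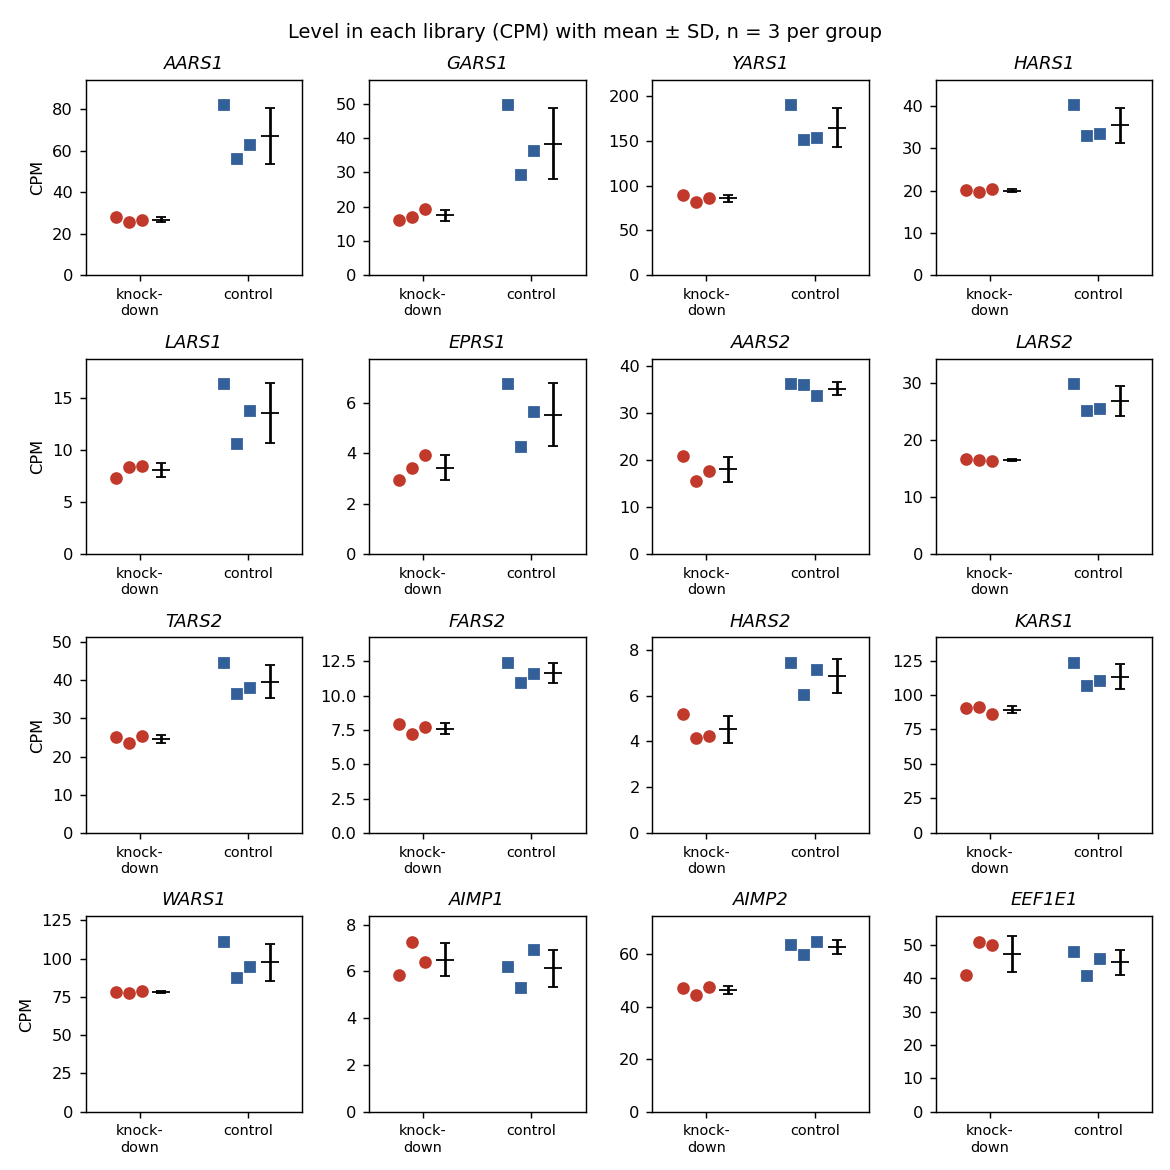
Level of 16 genes in each library, in CPM on a linear axis that starts at 0, with FBL knockdown libraries (circles) left of control libraries (squares) and the mean ± SD of each group beside its points (n = 3 each). The FBL knockdown points lie below all control points for 14 of the genes, and the groups overlap for AIMP1 and EEF1E1.

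Of the remaining cytosolic genes some fell and others did not pass. NARS1 for asparagine (log2 fold change -0.66 ± 0.15), CARS1 for cysteine (-0.64 ± 0.11), TARS1 for threonine (-0.55 ± 0.14), VARS1 for valine (-0.52 ± 0.10), SARS1 for serine (-0.50 ± 0.09) and MARS1 for methionine (-0.42 ± 0.08) were called lower. The MARS1 row overlaps ARHGAP9 and DDIT3 in the annotation, so its reads are uncertain. TARS1 lost its call without FBL knockdown replicate 2 (-0.54, edgeR adjusted p = 0.0573) and without control replicate 3 (-0.48, 0.0609). On log2(RPKM + 1), a scale that understates changes of low genes, CARS1 and LARS1 were at -0.42, EPRS1 and TARS1 at -0.31 and HARS2 at -0.38, all still called by limma-trend. IARS1 for isoleucine was at -0.25 ± 0.10 (edgeR adjusted p = 0.0827) and QARS1 for glutamine at -0.19 ± 0.08 (0.0788), neither past the threshold, although neither had overlapping groups. IARS1 passed without control replicate 2, at -0.32 with an adjusted p of 0.0174. RARS1 for arginine had 3.45, 4.70 and 4.47 CPM in FBL knockdown libraries, against 4.46, 3.77 and 4.57 CPM in control libraries. Its groups overlapped fully, at a log2 fold change of -0.02 ± 0.14 (edgeR adjusted p = 0.928), and the sign turned under upper-quartile scaling (0.044) and without some libraries.

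FARSA and FARSB encode the alpha and beta subunits of 1 enzyme, phenylalanyl-tRNA synthetase, a tetramer of equal numbers of both. FARSA had 219.7, 165 and 187 CPM in FBL knockdown libraries, against 258, 304 and 289 CPM in control libraries. FARSB had 14.6, 15.2 and 15.0 CPM in FBL knockdown libraries, against 24.5, 16.7 and 19.1 CPM in control libraries. Neither had overlapping groups, and the log2 fold changes were -0.58 ± 0.11 for FARSA and -0.43 ± 0.13 for FARSB (SE; edgeR adjusted p of FARSB 0.0265). FARSB lost its call when any library other than control replicate 2 was left out, at edgeR adjusted p of 0.0552 to 0.102 and log2 fold changes of -0.47 to -0.27. Per length, the RPKM of FARSA exceeded that of FARSB by a mean ratio of 17.7 in FBL knockdown libraries and 20.2 in control libraries. FARSA was the most highly expressed of the 38 genes per length, at 78.1 RPKM in FBL knockdown and 117 RPKM in control libraries, followed by QARS1 at 55.1 RPKM in FBL knockdown and 63.1 RPKM in control libraries and VARS1 at 33.8 RPKM in FBL knockdown and 48.6 RPKM in control libraries. At the other end were EPRS1 at 0.627 RPKM in FBL knockdown and 1.02 RPKM in control libraries and WARS2 at 0.920 RPKM in FBL knockdown and 1.02 RPKM in control libraries.

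Scaffold proteins and the enzymes they bind were set beside the free enzymes. AIMP2 had 47.0, 44.6 and 47.4 CPM in FBL knockdown libraries, against 63.7, 59.6 and 64.8 CPM in control libraries. Its groups did not overlap, and the log2 fold change was -0.44 ± 0.08 (SE; edgeR adjusted p = 0.00197). AIMP1 had 5.83, 7.27 and 6.42 CPM in FBL knockdown libraries, against 6.20, 5.30 and 6.90 CPM in control libraries. EEF1E1 had 41.0, 51.0 and 49.9 CPM in FBL knockdown libraries, against 47.9, 40.6 and 45.9 CPM in control libraries. Groups overlapped for both, at 0.09 ± 0.13 for AIMP1 and 0.08 ± 0.11 for EEF1E1 (log2 fold change ± SE; edgeR adjusted p = 0.648 and 0.61), with AIMP1 between -0.012 and 0.18 when single libraries were left out. AIMP1 and EEF1E1 were also the most AT-rich of the 38, at 36.3% and 36.9% GC. Among the 7 cytosolic enzymes of the complex (EPRS1, IARS1, KARS1, LARS1, MARS1, QARS1 and RARS1) 4 fell, with a median of -0.34. All 12 free cytosolic genes fell, with a median of -0.61 and a range of -1.32 to -0.32. The difference between complex and free enzymes was not tested. All 9 cytosolic genes of class II fell, with a median of -0.58, and 6 of 9 in class I, with a median of -0.42. The class I genes that were not called, IARS1, QARS1 and RARS1, are the same genes that were not called in the complex. The class and complex groupings therefore overlap, and the difference between classes was not tested either. EPRS1, which holds both folds, is in neither class. Beside these counts, 17.0% of all tested genes were called lower. By level it was 14.3% at 1 to 10 CPM, 27.7% at 10 to 100 CPM and 27.8% at 100 CPM or more.

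A short sequence shared by several cytosolic promoters was looked for next. C/EBP-ATF response elements, bound by ATF4 together with C/EBP partners, were searched as TGATGNAA and E-boxes as CACGTG, each on both strands, in RefSeq promoters of 250 bases before to 50 after the start. Of the 38 genes 33 had a RefSeq promoter in the table used, and LARS1, VARS1, YARS1, AARS2 and VARS2 had none. TGATGNAA was found in 7 of 16 cytosolic genes (43.8%), 0 of 3 scaffold genes and 1 of 14 mitochondrial genes (7.14%), beside 1217 of 27305 genes in all (4.46%) and 1270 of 35116 promoters (3.62%). CACGTG was found in 1 of 16 cytosolic, 1 of 3 scaffold and 3 of 14 mitochondrial genes, beside 8.77% of all genes and 7.26% of all promoters. Of the 7 cytosolic genes with TGATGNAA 6 fell, with a median log2 fold change of -0.64, and IARS1 did not pass. This share is near that of all cytosolic genes, of which 16 of 19 fell, with a median of -0.55. Among all tested genes 17.0% were called lower. A match describes letters in a window and does not show that a factor binds there. The 8 windows are printed with the searched element in capitals and its flanking bases, which differ between genes, 5′ to 3′ on the strand of the gene.
AARS1 (chr16:70289676-70289703, minus strand): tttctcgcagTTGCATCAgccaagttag
GARS1 (chr7:30594835-30594862, plus strand): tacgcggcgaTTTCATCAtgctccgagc
CARS1 (chr11:3057408-3057435, minus strand): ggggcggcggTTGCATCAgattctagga
NARS1 (chr18:57621805-57621832, minus strand): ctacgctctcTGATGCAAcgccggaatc
TARS1 (chr5:33440957-33440984, plus strand): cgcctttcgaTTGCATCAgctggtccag
MARS1 (chr12:57488054-57488081, plus strand): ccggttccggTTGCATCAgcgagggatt
IARS1 (chr9:92293693-92293720, minus strand): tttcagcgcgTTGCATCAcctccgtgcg
YARS2 (chr12:32756077-32756104, minus strand): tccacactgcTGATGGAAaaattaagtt

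In 5 of these windows, those of AARS1, CARS1, TARS1, MARS1 and IARS1, the same 8 letters stood in the same orientation, and NARS1 held their reverse complement. The element of AARS1 began 187 bases before the RefSeq start and that of YARS2 197 bases before it, while those of GARS1 (33 before), IARS1 (13 before), MARS1 (4 before), CARS1 (2 before), TARS1 and NARS1 lay close to it. None of the 8 windows also held CACGTG.

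Of the 16 mitochondrial genes 9 fell, 0 rose and 7 did not pass, with a median log2 fold change of -0.29 and a range of -0.97 to 0.07. Groups did not overlap for 12 of the 16, beside 45.2% of all tested genes in either direction. This held for 5 of 7 at 1 to 10 CPM, beside 2703 of all 6098 genes of that level. At 10 to 100 CPM it held for 7 of 9, beside 3097 of 5485. At 1 to 10 CPM 3 of 7 were called lower and at 10 to 100 CPM 6 of 9, beside the shares of all genes given for the cytosolic enzymes. Their summed RPKM was 71.3, 65.0 and 68.2 in FBL knockdown libraries, against 90.4, 89.4 and 87.8 in control libraries.

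AARS2, the mitochondrial alanyl-tRNA synthetase (chromosome 6, 44299654 to 44313326, minus strand), had the largest change of these. It had 20.9, 15.5 and 17.6 CPM in FBL knockdown libraries, against 36.2, 35.9 and 33.6 CPM in control libraries. All FBL knockdown values were well below the controls, at a log2 fold change of -0.97 ± 0.11 (SE; edgeR adjusted p = 0.000142), so alanine led in both compartments. LARS2, for leucine, had 16.5, 16.5 and 16.3 CPM in FBL knockdown libraries, against 29.7, 25.1 and 25.4 CPM in control libraries. The FBL knockdown libraries differed little among themselves, and the log2 fold change was -0.70 ± 0.09 (SE; edgeR adjusted p = 0.000326). TARS2, for threonine, had 25.1, 23.5 and 25.3 CPM in FBL knockdown libraries, against 44.5, 36.4 and 37.9 CPM in control libraries. FARS2, a phenylalanyl-tRNA synthetase that works as a monomer, unlike the cytosolic tetramer, had 7.92, 7.17 and 7.67 CPM in FBL knockdown libraries, against 12.4, 10.9 and 11.6 CPM in control libraries. Both fell without overlap, at -0.69 ± 0.10 for TARS2 and -0.62 ± 0.10 for FARS2 (log2 fold change ± SE; edgeR adjusted p = 0.000443 and 0.000871).

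Smaller falls in the mitochondrial group were those of IARS2 (log2 fold change -0.54 ± 0.09), YARS2 (-0.48 ± 0.11), EARS2 for glutamate (-0.30 ± 0.08, edgeR adjusted p = 0.0114) and CARS2 (-0.25 ± 0.08, 0.0262). EARS2 lost its call without FBL knockdown replicate 2 (-0.28, edgeR adjusted p = 0.0538), without FBL knockdown replicate 3 (-0.27, 0.0858) and without control replicate 3 (-0.31, 0.0516), and CARS2 lost it without the same libraries (-0.25 to -0.22, 0.081 to 0.157). Genes that did not pass were SARS2 (-0.27 ± 0.18), RARS2 (-0.24 ± 0.12), MARS2 (-0.23 ± 0.09), NARS2 (-0.20 ± 0.11), VARS2 (-0.19 ± 0.10), WARS2 (-0.14 ± 0.12) and PARS2 (0.07 ± 0.09). SARS2 had 5.70, 4.24 and 4.81 CPM in FBL knockdown libraries, against 4.41, 7.25 and 6.06 CPM in control libraries. The groups overlapped, and the gene passed without control replicate 1, at -0.44 with an edgeR adjusted p of 0.0357. PARS2, for proline, had 17.6, 17.8 and 19.7 CPM in FBL knockdown libraries, against 16.96, 18.4 and 17.1 CPM in control libraries, and the groups overlapped. Among mitochondrial enzymes 4 of 7 in class II fell, with a median of -0.60, and 5 of 9 in class I, with a median of -0.25. Beside these counts, 17.0% of all tested genes were called lower, or 14.3% at 1 to 10 CPM and 27.7% at 10 to 100 CPM.

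Enzymes for the same amino acid were then compared across compartments. Of 17 such pairs the cytosolic change lay below the mitochondrial change in 12 and above it in 5. Not all pairs are separate, since EPRS1 was set against both EARS2 and PARS2, and FARS2 against both FARSA and FARSB. The log2 difference was near zero for LARS1 over LARS2 (-0.032) and FARSA over FARS2 (0.032). The ratio of RPKM within a library was tested for all 17 pairs and for FARSA over FARSB by a 2-sided exact permutation test. With 3 libraries against 3 the smallest p it can give is 0.1, and the smallest adjusted p over the 18 ratios was 0.257, so none could pass.

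The valine pair had the least spread. Its log2 ratio of VARS1 over VARS2 was 1.79, 1.76 and 1.76 in FBL knockdown libraries, against 2.09, 2.11 and 2.09 in control libraries. The groups were far apart for their spread, with a difference of -0.33 (2-sided exact permutation test p = 0.1, adjusted p = 0.257), and both genes are GC-rich, at 62.6% and 59.3% GC. VARS2 shares its locus with GTF2H4, so its reads are uncertain. The tyrosine pair, YARS1 over YARS2, had log2 ratios of 1.90, 1.79 and 1.65 in FBL knockdown libraries, against 2.32, 2.22 and 2.15 in control libraries, a difference of -0.45 without overlap. EPRS1 over PARS2, the enzymes for proline, had log2 ratios of -3.80, -3.60 and -3.54 in FBL knockdown libraries, against -2.55, -3.33 and -2.82 in control libraries. Their difference of -0.75 was the largest of the 18 in size, the groups did not overlap, and the controls spread widely. For isoleucine the order was turned round. IARS1 over IARS2 had log2 ratios of 0.84, 0.98 and 0.94 in FBL knockdown libraries, against 0.69, 0.61 and 0.58 in control libraries, a difference of 0.29 without overlap between genes of 43.6% and 43.8% GC. For alanine, where both genes fell most, AARS1 over AARS2 had log2 ratios of 0.37, 0.66 and 0.52 in FBL knockdown libraries, against 1.11, 0.57 and 0.84 in control libraries. These overlapped, with a difference of -0.32 (2-sided exact permutation test p = 0.2, adjusted p = 0.4).

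**Figure D3:**
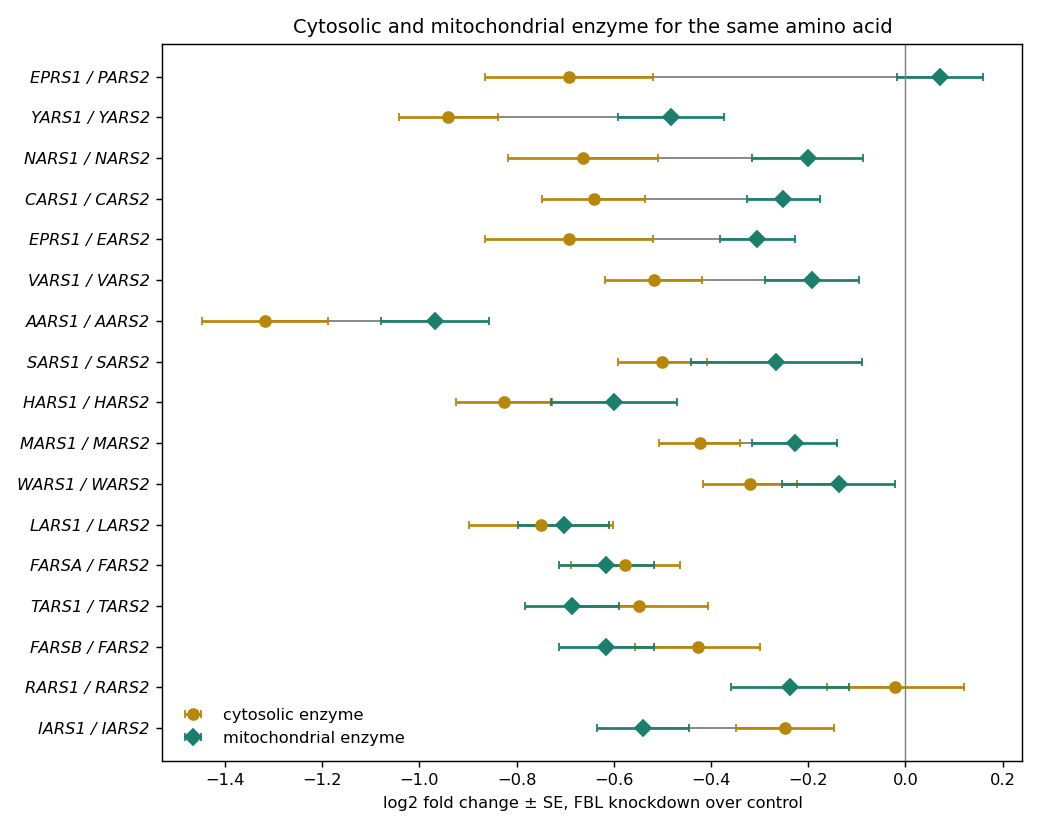
Log2 fold change, FBL knockdown over control, with standard error (horizontal axis) of the cytosolic enzyme (circle) and the mitochondrial enzyme (diamond) for the same amino acid, ordered from the pair whose cytosolic change lies furthest below the mitochondrial one. The cytosolic change lies to the left in 12 of the 17 pairs, and IARS1 and IARS2 at the bottom are the furthest the other way.

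Opposite-strand neighbours whose start lies within 1000 bases of a synthetase start were given beside them. The distances ran from 64 bases (RARS2 and ORC3) to 867 bases (CARS2 and ING1), and whether such genes share a start region was not tested. Of the other coding neighbours, LYRM4 beside FARS2 (0.21 ± 0.09), WDR25 beside WARS1 (0.03 ± 0.10), ING1 beside CARS2 (0.06 ± 0.10) and ORC3 beside RARS2 (0.40 ± 0.16) had log2 fold changes above zero that did not pass edgeR's test. TERF2IP beside KARS1 (-0.24 ± 0.10), PMS2 beside AIMP2 (-0.22 ± 0.15) and MRPS12 beside SARS2 (-0.33 ± 0.12) were below zero and did not pass either. UBFD1 beside EARS2 fell by 0.79 ± 0.08 on the log2 scale (SE; edgeR adjusted p = 7.99e-05), to 38.4 CPM in FBL knockdown libraries, against 66.1 CPM in control libraries. Among non-coding neighbours beside GARS1-DT, the weakly expressed antisense gene ENSG00000249572, which starts 77 bases from TARS1, was called lower (-1.01 ± 0.34, edgeR adjusted p = 0.04), at 0.106 CPM in FBL knockdown libraries and 0.216 CPM in control libraries. WARS2-AS1 beside WARS2 was at 0.16 ± 0.11 and did not pass. Of the 38 genes 15 overlap a coding gene in the annotation, among them HARS1, KARS1, WARS1, YARS1, AARS2 and EARS2, and for these the assignment of reads is uncertain.

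**Figure D4:**
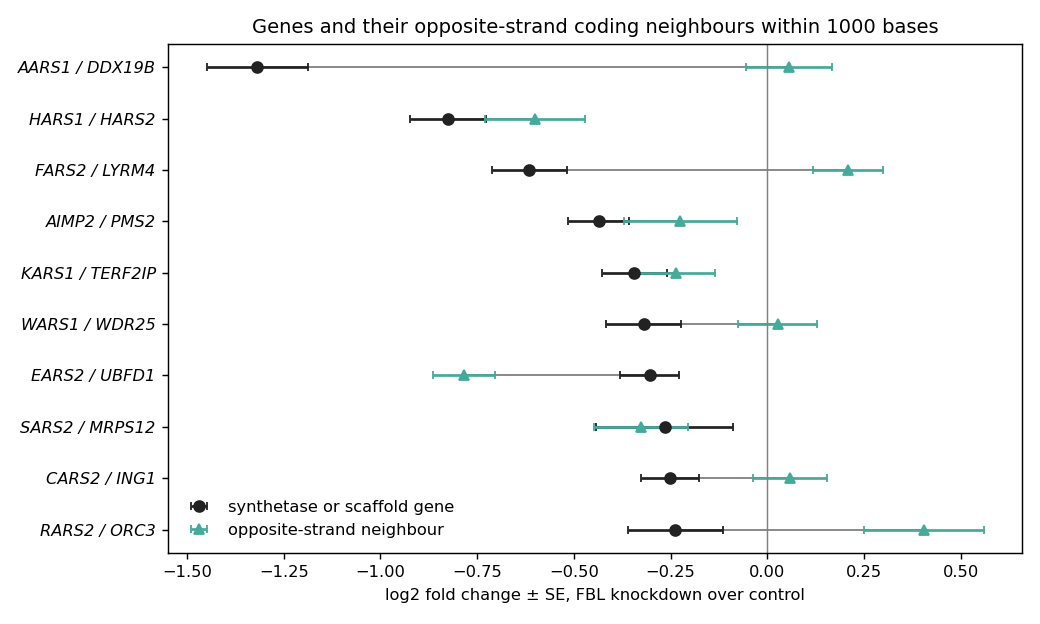
Log2 fold change, FBL knockdown over control, with standard error (horizontal axis) of synthetase or scaffold genes (circles) and of the coding gene that starts within 1000 bases on the other strand (triangles), one pair per line. AARS1 and DDX19B are the furthest apart, HARS1 and HARS2 are both called lower, and UBFD1 lies below EARS2.

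The spread between libraries of the same group differed by base composition. The 13 genes under 45% GC had a median deviation from their group mean of -0.16, 0.10 and 0.07 on the log2 scale in FBL knockdown libraries 1 to 3 and of 0.09, -0.17 and 0.05 in control libraries 1 to 3. The 25 genes of 45% GC or more stood at 0.04, -0.05 and -0.01 in FBL knockdown libraries 1 to 3 and at 0.11, -0.09 and -0.02 in control libraries 1 to 3. They lay on the other side of their group mean from the AT-rich genes in 4 of the 6 libraries, and on the same side in control libraries 1 and 2. Of the 13 genes under 45% GC 6 fell, with a median log2 fold change of -0.25, and of the 25 others 20 fell, with a median of -0.50. These sets also differed in level, at a median of 7.38 CPM under 45% GC and 46.8 CPM for the others. Among all tested genes 14.3% were called lower at 1 to 10 CPM and 27.7% at 10 to 100 CPM. Whether base composition or level went with the calls was not tested. With a correction for GC content in each library 17 of 19 cytosolic and 10 of 16 mitochondrial genes were called lower by edgeR, and 0 were called higher. Calls over all genes rose as well. With the correction 3931 of 18439 tested genes were called lower and 4508 higher, against 3141 and 2920 of 18486 without it.

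**Figure D5:**
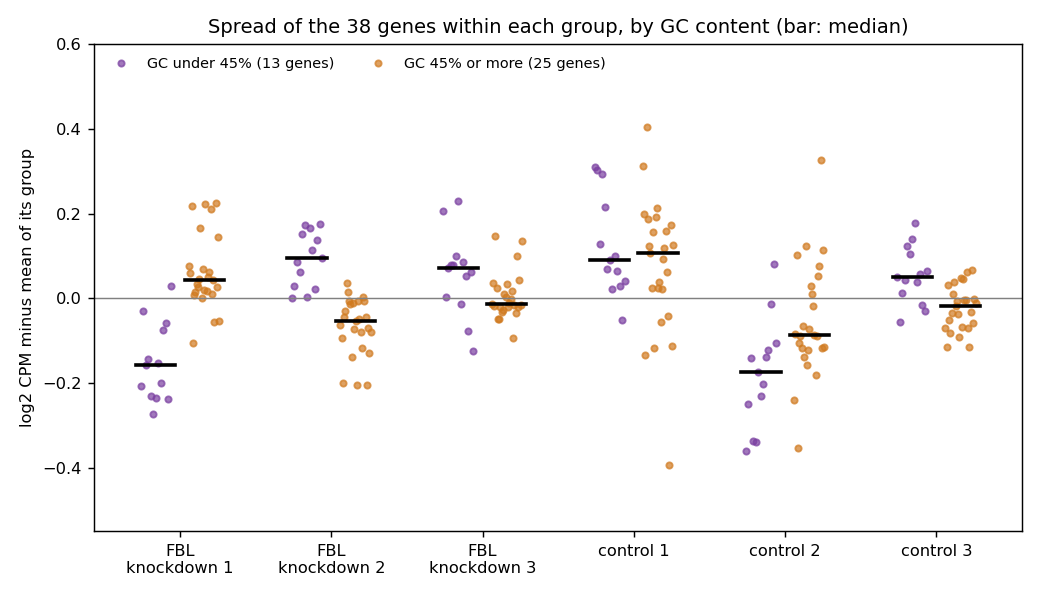
Deviation of each gene's log2 CPM from the mean of its group (vertical axis, log2 units) in each library, FBL knockdown 1 to 3 left of control 1 to 3, split into 13 genes under 45% GC and 25 of 45% GC or more, with a bar at each median. Genes under 45% GC sit low in FBL knockdown library 1 and control library 2, at medians of -0.16 and -0.17.

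Other genes of tRNA charging and delivery were read from the same fit. Of 21 such genes, all tested, 5 fell and 2 rose, beside 17.0% of all tested genes called lower and 15.8% called higher, and the median log2 fold change was 0.02. These shares are near those of all genes. GATB, a subunit of the amidotransferase that makes mitochondrial glutaminyl-tRNA, had 22.7, 20.2 and 21.8 CPM in FBL knockdown libraries, against 39.2, 37.6 and 36.9 CPM in control libraries. It fell without overlap, at -0.81 ± 0.08 (SE; edgeR adjusted p = 8.65e-05). The other subunits of that enzyme went different ways, GATC at -0.27 ± 0.08 (edgeR adjusted p = 0.0267) and QRSL1 at 0.47 ± 0.14 (0.0253). PSTK, the kinase that prepares seryl-tRNA for selenocysteine synthesis, rose by 0.74 ± 0.11 (edgeR adjusted p = 0.000819), and the mitochondrial elongation factor gene TSFM fell by 0.59 ± 0.09 (0.000902), both on the log2 scale. PTRH2 (-0.50) and the mitochondrial elongation factor TUFM (-0.46) fell too. The cytosolic elongation factor EEF1A1 was at 0.28 ± 0.10 and the tRNA export receptor XPOT at 0.23 ± 0.11, and neither passed.

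Genes of the amino acid response were examined last, namely EIF2AK4 (GCN2), ATF4 and genes downstream of them. Of 32 such genes 29 were tested, of which 15 fell, 0 rose and 14 did not pass. Among all tested genes 17.0% were called lower, or 27.7% of those at 10 to 100 CPM, and 15.8% higher. The median log2 fold change of the 29 genes was -0.28. Those that did not pass included DDIT3 (-0.17), TRIB3 (-0.24) and SESN2 (0.14). ALDH18A1, an enzyme of proline synthesis, had 75.0, 70.9 and 73.6 CPM in FBL knockdown libraries, against 183, 149 and 159.6 CPM in control libraries. PSAT1, of serine synthesis, had 19.6, 20.2 and 20.01 CPM in FBL knockdown libraries, against 44.3, 38.3 and 40.1 CPM in control libraries. Both had groups far apart, at -1.16 ± 0.09 and -1.04 ± 0.09 (log2 fold change ± SE; edgeR adjusted p = 2.45e-05 and 3.35e-05). CTH, of cysteine synthesis (-0.96 ± 0.17), and PHGDH, of serine synthesis (-0.81 ± 0.09), fell as well. ATF4 itself had 492, 525 and 509.9 CPM in FBL knockdown libraries, against 596, 518 and 557 CPM in control libraries, with overlapping groups (-0.13 ± 0.08, edgeR adjusted p = 0.257), and EIF2AK4 was at -0.23 (0.152). ASNS, CBS and NUPR1 were below the filter on low counts. ASNS, the asparagine synthetase gene, had 5, 4 and 3 counts in FBL knockdown libraries, against 16, 7 and 6 counts in control libraries.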

How the data were processed

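Per the labels' protocols, total RNA went into NEBNext Ultra RNA libraries. The authors deposited whole-number counts per Ensembl gene with gene lengths, and RPKM values per gene. All 191796 deposited RPKM values were recovered from the counts, lengths and TMM-scaled totals within a relative tolerance of 1e-06. Tools and build in the submitters' processing notes are GRCh38, cutadapt 1.18, HISAT2, featureCounts and edgeR, and 0 value columns were left unused. Whether counting used strand, and how multiply aligned reads were handled, is not given in the sources used here.

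Counts were filtered with filterByExpr (minimum count 10, minimum total 15; 18486 of 31966 genes kept), scaled by TMM and compared with edgeR 4.0.16's quasi-likelihood test in R 4.3.3 on group alone, with Benjamini-Hochberg adjustment over all tested genes and a threshold of 0.05. The pipeline was tested on simulated data. CPM values are relative to the TMM-scaled totals, and SE were derived from the F statistic. Positions, overlaps and GC content came from GENCODE v29 (GRCh38), matched for 31848 genes, and promoters from RefSeq (GRCh38.p14). Medians and counts of gene groups carry no test.

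The genes, lists and the naming rule were chosen with earlier results of these data known. The rule gave per-library values to the 6 cytosolic and 4 mitochondrial genes with the largest change among those called, the scaffold genes, GARS1, KARS1, HARS1, HARS2 and WARS1, and up to 4 called genes per list. UBFD1, other genes with per-library values and the ratio pairs described were chosen after their values were seen. A planned correlation with AARS1 over libraries was left out because the libraries fall into 2 separate groups. Alternatives were RLE, upper-quartile and library-size scaling, no filter, a stricter filter, DESeq2 1.42.0, limma 3.58.1 (voom, and limma-trend on log2(RPKM + 1) and log2(RPKM + 0.1)), a replicate block and the omission of each library. A GC correction, and the omission of each library for the ratios, were added after the data were seen.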

Additional observations from a re-analysis of the deposited data

How the results depend on the processing

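Over the 17 alternatives 12 to 17 cytosolic and 7 to 10 mitochondrial genes were called lower, and 0 of the 38 were called higher. The stricter filter left 17 cytosolic and 14 mitochondrial genes to test, without EPRS1, RARS1, NARS2 and WARS2. Of the 26 called genes 19 kept the call in every alternative. FARSB lost it in 10, WARS1 in 9, CARS2 in 6, EARS2 in 4, TARS1 in 2, and EPRS1 and KARS1 in 1 each. Of 642 combinations of a gene and an alternative, 599 kept direction and side of the threshold. The cytosolic median log2 fold change was -0.48 under upper-quartile scaling, -0.42 on log2(RPKM + 1) and -0.57 to -0.49 with 1 library left out. The mitochondrial median was -0.22 under upper-quartile scaling, -0.35 with the stricter filter and -0.36 to -0.26 with 1 library left out. With the stricter filter each mitochondrial gene still tested lay above its log2 fold change in the main fit. The lower median there came with the loss of NARS2 and WARS2 from the set. Upper-quartile scaling called 3597 genes higher and 2528 lower, so 58.7% of calls were higher in place of 48.2%. The total of 6061 calls became 3923 to 6943 with 1 library left out, the lowest being 3923 without FBL knockdown replicate 2 and 4017 without FBL knockdown replicate 3, and 8439 with the GC correction. RARS1 was at 0.044 under upper-quartile scaling and at -0.11 to 0.10 with 1 library left out, AIMP1 at -0.012 to 0.18, and the log2 difference of the FARSA over FARSB ratio at -0.39 to 0.0022. Apart from that smaller set, the cause of these changes was not tested. Libraries with the same number did not consistently deviate together (correlations of -0.514, -0.432 and 0.179 across genes). Between libraries of different number the correlations ran from -0.347 (FBL knockdown 3 with control 2) to 0.573 (FBL knockdown 1 with control 2). FBL knockdown 2 with control 1 stood at 0.409. With the replicate number as a block in edgeR, 3833 genes, 14 cytosolic and 7 mitochondrial, were called. The 3 libraries per group limit what a ratio can show.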
